A study of Homo sapiens with 6 samples.

Results

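Transcript levels of 9 genes of the activin pathway were followed, and signalling itself was not measured. The genes were the activin subunit genes INHBA and INHBB, the genes of the activin-binding proteins FST (follistatin) and FSTL3, the receptor genes ACVR1, ACVR1B, ACVR2A and ACVR2B, and the pseudoreceptor gene BAMBI. A gene was taken in through its symbol in the platform annotation, which gave 21 probe sets among 54675 on the array and 9 of 19775 genes. RNA came from HaCaT, an immortal human skin keratinocyte line that keeps many traits of basal epidermal cells, grown in DMEM with serum. The 3 negative pressure cultures spent 12 h in a negative pressure incubator at a gradient of 125 mmHg, and the 3 control cultures spent the same 12 h at ambient pressure. Cells were washed and lysed directly after the exposure, so the values describe 1 line at 1 time point. The titles call the 3 cultures per group biological replicates.

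Activins are dimers of inhibin beta subunits: INHBA encodes the beta A chain of activin A and INHBB the beta B chain of activin B. The dimer binds a type II receptor (ACVR2A or ACVR2B), which recruits and phosphorylates a type I receptor, chiefly ACVR1B, and this kinase phosphorylates SMAD2 and SMAD3. Follistatin and FSTL3 wrap around the ligand and keep it from its receptors, and BAMBI, which resembles a type I receptor but lacks a kinase, dampens signalling. In skin, activin A is known as a wound-induced factor that acts on keratinocytes and dermal cells, and follistatin as its local antagonist.

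Under negative pressure, transcripts of the ligand subunit INHBA and of its antagonist FST were both lower, by 2.20-fold and 2.21-fold, while the other subunit, the other antagonist and all receptors differed by 1.14-fold or less on the brightest probe set of each gene (1.16-fold on a second ACVR2B probe set, 236126_at). INHBA was past an adjusted p of 0.05 in limma (0.0273). FST was at 0.0529, and at 0.00424 with the replicate number as a block, in which 2.06% of all genes passed as lower. In both genes the 3 negative pressure arrays lay below all 3 ambient arrays, and in the other 7 members the groups overlapped. Of all genes, 0.920% passed the threshold in either direction and 0.314% as lower, and in 6.96% the negative pressure arrays lay wholly below the ambient ones. The set was selected on a known result of this same comparison, the fall of INHBA, with the rest named for their place in its pathway. The values of the members are therefore given as a description, and their p-values place them in the table of all genes without being independent support.

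Windows at a transcript start of INHBA and of FST are shown because these are the 2 members whose negative pressure arrays lay wholly below the ambient ones. Each sequence runs 5' to 3' on the coding strand from 250 bases before to 20 bases after a RefSeq transcript start in GRCh38.p14. INHBA lies on the minus strand (chr7:41703071-41703340) and FST on the plus strand (chr5:53480379-53480648). The INHBA window surrounds a transcript start that lies inside the annotated span of the gene, not the outermost start. Capitals mark matches to the 4 motifs searched on both strands: the AP-1 site TGANTCA, the cyclic AMP response half-site TGACG, the SMAD-binding element CAGACA and the TATA box TATAAA.
INHBA: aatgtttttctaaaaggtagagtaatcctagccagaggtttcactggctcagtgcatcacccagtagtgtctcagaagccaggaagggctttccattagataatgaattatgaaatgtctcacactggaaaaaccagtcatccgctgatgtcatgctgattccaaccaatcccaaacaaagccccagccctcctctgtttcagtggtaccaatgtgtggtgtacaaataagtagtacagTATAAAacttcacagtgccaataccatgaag
FST: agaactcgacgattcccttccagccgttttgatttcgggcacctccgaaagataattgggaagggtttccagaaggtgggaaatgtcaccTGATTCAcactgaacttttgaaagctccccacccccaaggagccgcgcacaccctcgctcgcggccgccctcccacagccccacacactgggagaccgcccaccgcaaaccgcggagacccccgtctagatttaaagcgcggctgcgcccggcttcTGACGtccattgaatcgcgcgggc
The FST window held an AP-1 match, TGATTCA, starting 160 bases before the transcript start, and a TGACG match 4 bases before it, which do not overlap. The INHBA window held TATAAA, starting 11 bases before the start, and none of the other 3 motifs. Among 35116 windows of 270 bases in the same RefSeq table, 7.125% held TGANTCA, 22.89% TGACG, 15.11% CAGACA and 11.05% TATAAA. These are matches of letters and not measured binding. All 9 members had a window, 12 in total. Matches also lay in windows of members whose groups overlapped. An ACVR1 window held an AP-1 site, the FSTL3 window a TATA box on the other strand, and windows of ACVR1 and ACVR1B held CAGACA.

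The arrays themselves differed by more than pressure. The first principal component over all genes (42.2% of the variance) set the replicate 3 arrays of both groups, at 20.3 and 31.1, apart from the other 4, at -18.3 to -9.07. The second component (30.9%) separated ambient arrays (10.9 to 23.6) from negative pressure arrays (-15.6 to -15.2). The keratinocyte identity was checked on 7 measured markers (KRT5, KRT14, ITGA6, ITGB4, CDH1, CDH3 and SFN), with means of 8.62 to 12.5 on the log2 scale, all above the median gene mean of 4.997. Fibroblasts also make activin A. Of 6 fibroblast markers 5 lay below that median, with COL1A1 (6.78) above it, and none of the 6 passed in limma. The log2 of their summed intensities was 7.25 to 7.61 on the ambient arrays and 7.32 to 7.39 under negative pressure. COL1A1, the brightest, weighs most in that sum. All 3 melanocyte and both leukocyte markers measured lay below the median. Of 3 endothelial markers 1 lay above it, and the dim CDH5 (mean 4.41) fell by 0.80 on the log2 scale (limma adjusted p = 0.0325). COL1A1 and CDH5 are singled out after their values were seen.

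**Figure D1:**
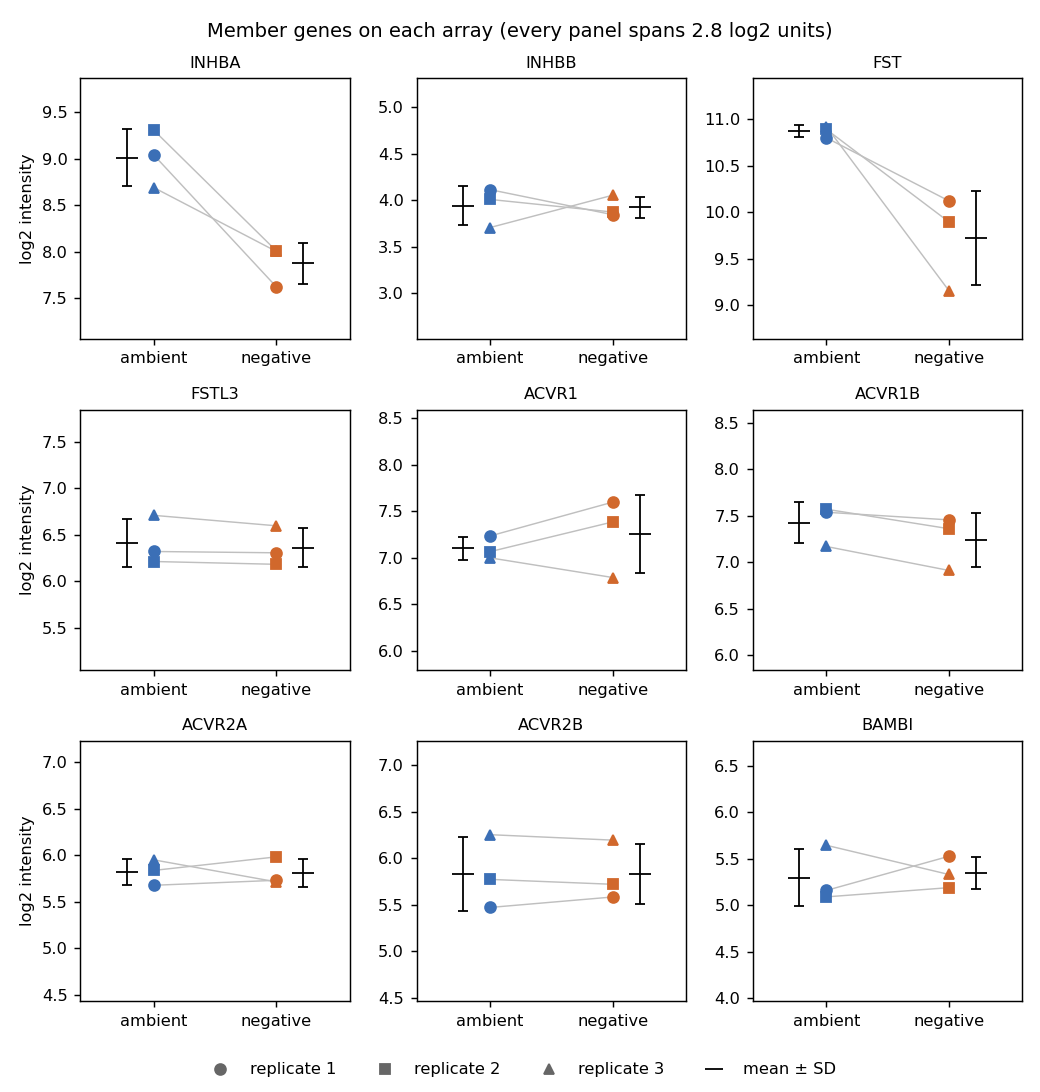
Log2 intensity of the 9 member genes on each array, ambient pressure in blue and negative pressure in orange, with grey lines joining arrays of the same replicate number and black bars giving the mean ± SD of 3 arrays. INHBA and FST lay lower on all 3 negative pressure arrays, by 1.13 and 1.15 on average, and the groups overlapped in the other 7 genes.

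INHBA, the beta A subunit gene (chromosome 7, 41685114 to 41705406 in GRCh38.p14), was represented by its brightest probe set, 227140_at. It read 9.04, 9.31 and 8.69 on the log2 scale on ambient arrays 1, 2 and 3, and 7.62, 8.01 and 8.002 on negative pressure arrays 1, 2 and 3. The lowest ambient array, replicate 3, stood above the highest negative pressure array, so the groups did not overlap. The means were 9.01 ± 0.31 and 7.88 ± 0.22 (SD, n = 3 each), which differ by -1.13 ± 0.18 log2 units (SE; 95% confidence interval -1.54 to -0.73; limma adjusted p = 0.0273). Between arrays of the same replicate number the difference was -1.42, -1.30 and -0.69, smallest in the replicate 3 pair. Without both replicate 3 arrays the log2 fold change was -1.36 (limma adjusted p = 0.0154). The call was lost without ambient replicate 1 (limma adjusted p = 0.123) or 2 (0.142) and without negative pressure replicate 1 (0.113) or 2 (0.104). It was kept without ambient replicate 3 (limma adjusted p = 0.0311) and without negative pressure replicate 3 (0.0443). Where the call was lost, the log2 fold change was -1.20 to -0.99. Over all genes, 182 passed with every array and 7 to 18 when an array of replicate 1 or 2 was left out. Without ambient replicate 3, 102 passed, and without negative pressure replicate 3, 145.

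The 3 INHBA probe sets gave changes of unequal size in 1 direction. Probe set 210511_s_at read 8.56, 8.75 and 8.11 on the ambient arrays and 7.58, 7.92 and 8.10 under negative pressure, a difference of -0.61 ± 0.19 log2 units (SE; limma adjusted p = 0.286 over 54613 probe sets, 0.124 with the block). Its groups nearly met at the replicate 3 arrays, at 8.11 under ambient and 8.10 under negative pressure. The dimmer 204926_at read 5.05, 5.12 and 4.91 against 4.59, 4.68 and 5.09, and its groups overlapped (log2 fold change -0.24 ± 0.15, SE; limma adjusted p = 0.714). On all 3 probe sets the replicate 1 and 2 pairs differed by -1.42 to -0.44, and in the replicate 3 pair the difference was -0.69, -0.0047 and 0.18 from the brightest to the dimmest probe set. With the mean of the 3 probe sets in place of the brightest, INHBA stood at -0.66 (limma adjusted p = 0.106), and only 227140_at passed by itself over the 6 arrays. Without both replicate 3 arrays 210511_s_at passed too (log2 fold change -0.91, limma adjusted p = 0.0400). Which part of the transcript each probe set reads was not examined here.

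INHBB, the beta B subunit gene, was dim, with a mean of 3.93 below the median gene mean. Its probe set read 4.11, 4.01 and 3.71 on the ambient arrays and 3.84, 3.87 and 4.05 under negative pressure. The groups overlapped, with a log2 fold change of -0.02 (95% confidence interval -0.33 to 0.29). The intervals of the 2 subunits did not overlap, but a test of the difference between them was not made, and at this signal a change in INHBB of up to about that interval could not be detected.

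**Figure D2:**
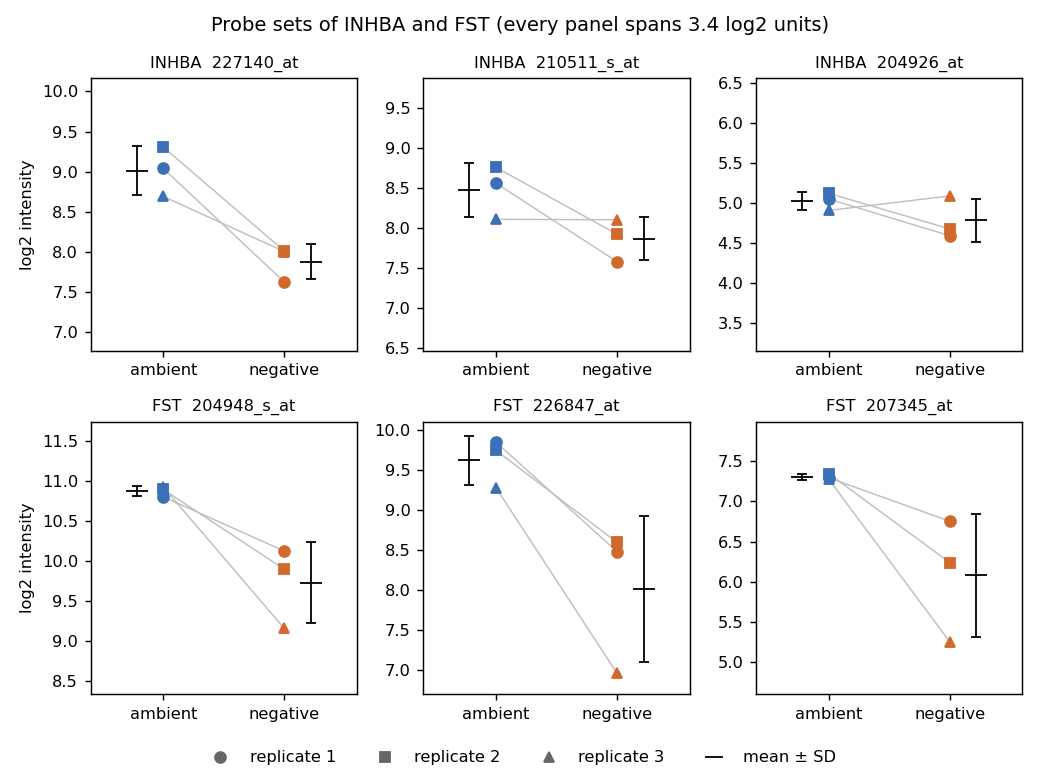
Log2 intensity of the 3 probe sets of INHBA (top) and the 3 of FST (bottom) on each array, drawn as in the plot of member genes, every panel over the same span. For INHBA the difference of the replicate 3 pair was the smallest in size on each probe set (-0.69, -0.0047 and 0.18), and for FST it was the largest on each (-2.31 to -1.77).

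FST, the follistatin gene (chromosome 5, 53480629 to 53487134), was measured by 3 probe sets. The brightest, 204948_s_at, read 10.80, 10.89 and 10.92 on ambient arrays 1, 2 and 3, and 10.12, 9.90 and 9.16 on negative pressure arrays 1, 2 and 3. The ambient arrays were nearly equal and the negative pressure arrays spread over about 1 log2 unit, all below them. The means were 10.87 ± 0.06 and 9.73 ± 0.51 (SD, n = 3 each), which differ by -1.15 ± 0.22 log2 units (SE; 95% confidence interval -1.64 to -0.65; limma adjusted p = 0.0529). FST did not pass in the fit without a block, and it passed with the replicate block (limma adjusted p = 0.00424), without negative pressure replicate 3 (log2 fold change -0.86, 0.0296) and without both replicate 3 arrays (-0.84, 0.0247). It also passed after repeated quantile normalization (0.0219) and cyclic loess (0.0199), and in limma with trend and robust variance (0.0482). It did not pass under the other 9 alternatives: median centring (limma adjusted p = 0.0774), the dimmest genes left out (0.0564), the mean of its probe sets (0.0889), its most variable probe set (0.113), and each of the other 5 single arrays left out (0.0816 to 0.224).

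The other FST probe sets were lower too, and their groups did not overlap either. Probe set 226847_at read 9.85, 9.74 and 9.27 against 8.48, 8.60 and 6.96, a 3.05-fold difference (log2 fold change -1.61 ± 0.38, SE; limma adjusted p = 0.140, with the block 0.00644). Probe set 207345_at read 7.30, 7.35 and 7.27 against 6.75, 6.24 and 5.25, a 2.34-fold difference (log2 fold change -1.23 ± 0.31, SE; limma adjusted p = 0.165, with the block 0.0271). Negative pressure replicate 3 was the lowest of the 6 arrays on all 3 probe sets. The replicate 3 pair differed by -2.31 to -1.77 and the pairs of replicates 1 and 2 by -1.37 to -0.54. The part of whatever set the replicate 3 arrays apart over all genes was not tested, and FST stood at -0.84 without both of them.

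FSTL3, the second follistatin-type antagonist gene, had overlapping groups. It read 6.32, 6.21 and 6.71 on the ambient arrays and 6.31, 6.18 and 6.60 under negative pressure. Arrays of the same replicate number differed by -0.11 to -0.014, and replicate 3 was the highest in both groups. The log2 fold change was -0.05 (95% confidence interval -0.42 to 0.32), an interval that lies above the one of FST, though the difference between the 2 genes was not tested.

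**Figure D3:**
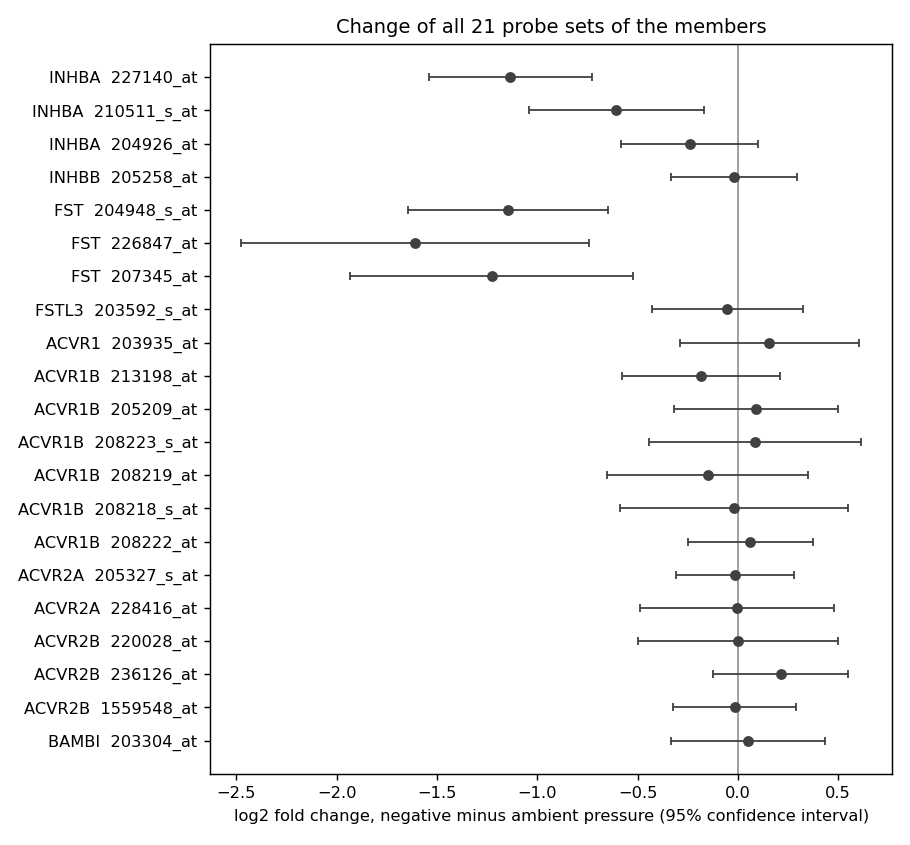
Log2 fold change (negative minus ambient pressure) with its 95% confidence interval from limma for the 21 probe sets of the members. The intervals of 2 INHBA and all 3 FST probe sets lay below 0, and those of the other 16 included 0.

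Among the type II receptors, which bind the ligand first, neither gene passed and the groups overlapped. ACVR2A read 5.68, 5.84 and 5.95 on the ambient arrays and 5.73, 5.98 and 5.71 under negative pressure (log2 fold change -0.01, 95% confidence interval -0.30 to 0.28), and its dimmer probe set 228416_at stood at -0.0040 (-0.49 to 0.48). ACVR2B read 5.47, 5.77 and 6.25 against 5.58, 5.72 and 6.20 (log2 fold change 0.00051, 95% confidence interval -0.49 to 0.50). On this probe set, 220028_at, replicate 3 was highest and replicate 1 lowest in both groups. The nearly as bright 236126_at did not share that order, reading 5.83, 5.69 and 5.51 against 5.94, 5.64 and 6.08 (log2 fold change 0.21), and 1559548_at stood at -0.02, both with intervals that included 0.

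Of the type I receptors, ACVR1B is the usual partner for activin A and ACVR1 serves mainly bone morphogenetic proteins. ACVR1B read 7.54, 7.57 and 7.17 on the ambient arrays and 7.46, 7.36 and 6.91 under negative pressure. The pairs differed by -0.08, -0.21 and -0.26, yet the groups overlapped (log2 fold change -0.18, 95% confidence interval -0.57 to 0.21). Its 5 dimmer probe sets, with means of 2.95 to 5.13, lay between -0.15 and 0.09. ACVR1 read 7.23, 7.06 and 6.998 against 7.60, 7.38 and 6.79. Its pairs differed in sign, 0.36 and 0.32 in replicates 1 and 2 and -0.21 in replicate 3 (log2 fold change 0.16, 95% confidence interval -0.28 to 0.60).

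BAMBI, the pseudoreceptor gene, read 5.16, 5.09 and 5.65 on the ambient arrays and 5.53, 5.19 and 5.33 under negative pressure, and the groups overlapped (log2 fold change 0.05, 95% confidence interval -0.33 to 0.43). Over the 7 members other than INHBA and FST, limma adjusted p ran from 0.800 for ACVR1B to 0.9997 for ACVR2B. These intervals leave room for changes of about 0.2 to 0.6 on the log2 scale that 3 arrays per group could not show. By probe set, 1 of 21 passed as lower in limma and 5 had negative pressure arrays wholly below the ambient ones, against 0.203% and 6.56% of all probe sets. With the block 4 passed as lower, against 1.12%. All of these are probe sets of INHBA or FST. They are repeated readings of 2 genes and not independent units to set against those shares.

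Other genes of the pathway were counted from 4 lists of 43 genes, of which 39 were measured. In limma 2 rose, none fell and 37 did not pass, against 0.607% of all genes higher, and their median log2 fold change was 0.10 against 0.01 for all genes. With the block 4 rose, CDKN2B, JUNB, INHBE and SMAD7 (all genes 2.87%), and none fell. The count of genes that fell depended on the probe set: THBS1, a SMAD2/3 target gene that encodes thrombospondin 1, stood at -0.36 on the brightest of its 7 probe sets (limma adjusted p = 0.816) and passed as lower with the mean of its probe sets (-0.85, limma adjusted p = 0.00732) and with its probe set of largest variance (-2.26, 0.0271). THBS1 is named after its values were seen.

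Among 11 other ligands, processing enzymes and ligand-binding proteins none passed. All 11 lay above 0, from 0.0075 to 0.78, with a median of 0.13. Only 5 of the 11 had a mean above the median gene mean, and the share of all genes above 0 was not counted. INHBE, which encodes the beta E subunit, read 2.82, 2.70 and 2.30 on the ambient arrays and 3.39, 3.71 and 3.07 under negative pressure. This signal is dim, below the median gene mean. Every negative pressure array lay above every ambient one (log2 fold change 0.78 ± 0.19, SE, limma adjusted p = 0.118, with the block 0.00424). The share of all genes separated upward in this way was not counted. Its mean of 2.997 was below that of each of the 3 melanocyte markers (3.25 to 3.95), so a level above background was not shown, and the difference between INHBE and INHBA was not tested. FURIN, a protease that cleaves activin precursors, stood at 0.20 (limma adjusted p = 0.644). Of 6 other receptors of the family none passed, with a median of -0.14. BMPR2, a bone morphogenetic protein type II receptor, stood at -0.33 (limma adjusted p = 0.547) and at 0.05 with the mean of its probe sets, and ACVR1C, a type I receptor for nodal and activin B, at -0.19 (0.674).

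**Figure D4:**
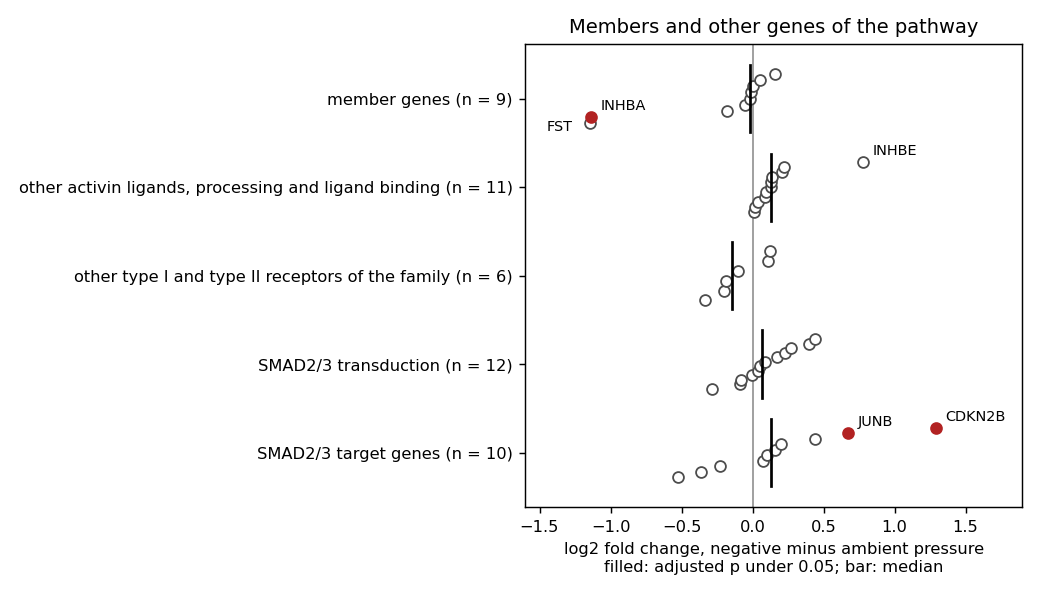
Log2 fold change (negative minus ambient pressure) of the 9 members and of 39 measured genes in 4 pathway lists, with filled points for an adjusted p under 0.05 in limma and a vertical bar at each median. The filled points are INHBA at -1.13, JUNB at 0.67 and CDKN2B at 1.29.

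Of 12 genes of SMAD2/3 transduction none passed, with a median of 0.07. SMAD3 read 8.28, 8.46 and 8.16 on the ambient arrays and 8.71, 8.70 and 8.69 under negative pressure (log2 fold change 0.40 ± 0.12, SE; limma adjusted p = 0.194). Its other 3 probe sets stood at -0.09, 0.34 and 0.0029, and with the mean of all 4 SMAD3 stood at 0.16 (limma adjusted p = 0.754). SMAD2 stood at 0.27 (0.524) on its brightest probe set and at -0.04 with the mean of its probe sets. Both are the transcription factors that the activin receptor phosphorylates. Of 10 measured SMAD2/3 target genes 2 rose and 8 did not pass, with a median of 0.13.

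CDKN2B, which encodes the cyclin-dependent kinase inhibitor p15, read 4.45, 3.92 and 4.04 on the ambient arrays and 5.13, 5.41 and 5.74 under negative pressure, a 2.45-fold rise (log2 fold change 1.29 ± 0.19, SE; limma adjusted p = 0.0220). The mean of this probe set, 4.78, lay below the median gene mean. A second, dimmer probe set of CDKN2B (mean 2.49) stood at 0.33 (limma adjusted p = 0.452 over all probe sets). JUNB, an AP-1 subunit gene, read 8.10, 7.99 and 8.28 against 8.73, 8.87 and 8.80 (log2 fold change 0.67 ± 0.12, SE; limma adjusted p = 0.0396), and missed the threshold after repeated quantile normalization (0.0572) and cyclic loess (0.0574) and with the most variable probe set per gene (0.0669). When 1 array was left out, CDKN2B passed in limma only without negative pressure replicate 3 (adjusted p = 0.0381; 0.0599 to 0.136 without the others) and JUNB only without ambient replicate 3 (0.0465; 0.0696 to 0.220 without the others). Over all genes, 7 to 18 passed when an array of replicate 1 or 2 was left out. SMAD7, the inhibitory SMAD, lay higher on all 3 negative pressure arrays (log2 fold change 0.44, limma adjusted p = 0.232, with the block 0.0368) and is named beyond the rule, after its value was seen. How many of all genes lay higher in this way was not counted. Of the 10 target genes 7 lay above 0 and 3 below.

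Likeness to INHBA was measured as the root mean square difference over the 6 arrays between profiles centred on their own means, among 9886 genes above the median gene mean. The 5 closest were KLHL7 (0.16 log2 units), a ubiquitin ligase adaptor gene, BRIP1 (0.17), a DNA repair helicase gene, RFLNB (0.19), THSD4 (0.21), a gene of microfibril assembly, and the long non-coding RNA gene WAKMAR2 (0.22). KLHL7 went from 8.34 ± 0.18 to 7.35 ± 0.04 and THSD4 from 7.25 ± 0.07 to 6.25 ± 0.22 (SD, n = 3 each). All 5 lay lower on every negative pressure array, which the measure of likeness favours. FST ranked 337 (0.43 log2 units) and ACVR1B 1744 (0.55), the next of the members. FST and INHBA shared the direction but not the order of arrays: INHBA was lowest on negative pressure replicate 1 and FST on replicate 3.

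**Figure D5:**
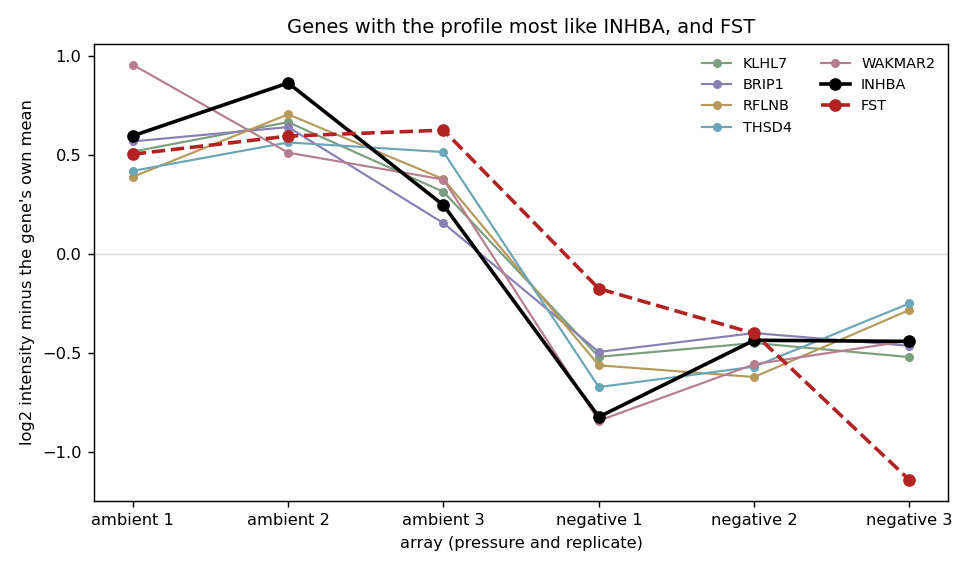
Log2 intensity minus each gene's own mean on the 6 arrays, for INHBA (black), FST (red, dashed) and the 5 genes with the smallest root mean square difference from INHBA. The 5 genes stayed within 0.16 to 0.22 log2 units of INHBA on this measure, and FST at 0.43 departed from them most on negative pressure replicate 3.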

How the data were processed

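The authors deposited log2 intensities, 1 value per probe set and array. The submitters' processing notes name RMA and Affymetrix Expression Console 1.2. Values ran from 0.890 to 13.4 with array medians of 3.81 to 3.89. Scan batches and filters were not stated. Each of 19775 genes was represented by its brightest probe set among the 41091 with 1 symbol, without a filter on low values.

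Groups and replicate numbers came from the titles. Pressure was tested two-sided in limma 3.58.1 (R 4.3.3; lmFit, then eBayes) with no block. Benjamini-Hochberg adjustment ran over all genes, and separately over all 54613 probe sets that are not controls, at 0.05. The fit was tested on simulated data. The 3 arrays per group limit the precision.

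Same-numbered arrays deviated together from their group means (r across genes 0.27, 0.27 and 0.53). As each r exceeds 0.1 the numbers were treated as pairs, on this check alone, in an alternative fit with a block. Its values are printed where they change a call. Values given without mention of a block come from the fit without one. The deviations within a group cancel out, so replicate 3 standing apart in both groups also raises r for numbers 1 and 2. Arrays of unlike number were not compared, so the check cannot show that numbers 1 and 2 are pairs.

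Members, lists and alternatives were chosen with earlier results of these data known. The text names the members, the genes of each list past the threshold or else the 2 of smallest p, and the 5 genes most like INHBA. Some listed genes are not reported here. Promoter windows come from RefSeq.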

Additional observations from a re-analysis of the deposited data

How the results depend on the processing

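INHBA and FST were lower under all 15 alternatives run for each, which use the same 6 arrays. As the groups did not overlap on the brightest probe set of either gene, leaving out arrays could not turn the sign. The block, the trend and robust variance and leaving out the dimmest genes do not alter the fold change. The count is therefore not independent support. INHBA ran from -1.36 to -0.66. It fell short of the threshold with its probe sets averaged (-0.66) and when any 1 of 4 of the 6 arrays was left out (-1.20 to -0.99). Leaving out any 1 of the 6 gave -1.30 to -0.99. FST passed at -1.15 with the replicate block and with trend and robust variance, at -0.84 without both replicate 3 arrays, and at -1.17 with repeated quantile normalization and with cyclic loess. Leaving out 1 array gave FST -1.35 to -0.86, past the threshold only without negative pressure replicate 3. Under the other 9 of its 15 alternatives FST did not pass (adjusted p 0.0564 to 0.224). Of 9 members, 2 passed with the replicate block, without both replicate 3 arrays, with repeated quantile normalization, cyclic loess, trend and robust variance and at an adjusted p of 0.1, 0 passed with the mean of all probe sets, and 0 to 2 when 1 array was left out. Pathway list genes past the threshold were 4 with the block, 1 with repeated quantile normalization and 1 with cyclic loess, and 0 to 1 when 1 array was left out. Of these, 1 was lower (THBS1) with the mean of all probe sets and with the most variable one, and 0 in the other settings. INHBE passed at 0.78 with the block and at 0.79 without both replicate 3 arrays.

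Over all genes, 182 passed in the fit without a block, 976 with the replicate block, 372 without both replicate 3 arrays, 352 at an adjusted p of 0.1 and 7 to 145 when 1 array was left out. The low end, 7 to 18, came from leaving out an array of replicate 1 or 2. Of probe sets, 262 passed, 1242 with the block, 600 without both replicate 3 arrays and 1 to 235 when 1 array was left out. The cause of these differences was not tested. The block changed no member call other than those of FST and its probe sets.

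Signs turned for the values below, and none of these passed. Without both replicate 3 arrays ACVR2A stood at 0.0998 and the ACVR1B probe sets 208219_at and 208222_at at 0.061 and -0.021. ACVR2B stood at -0.011 with median centring, -0.014 with repeated quantile normalization and -0.031 with cyclic loess. Averaged probe sets gave 0.046 for BMPR2 (-0.33 on its brightest) and -0.037 for SMAD2 (0.27 on its brightest). Leaving out 1 array gave -0.013 to 0.39 for ACVR1, -0.099 to 0.052 for ACVR2A, -0.18 to 0.21 for ACVR2B, -0.053 to 0.22 for BAMBI, -0.17 to 0.095 for FSTL3 and -0.14 to 0.066 for INHBB. For dimmer probe sets it gave -0.086 to 0.22 (205209_at), -0.33 to 0.14 (208218_s_at), -0.36 to 0.12 (208219_at), -0.043 to 0.17 (208222_at) and -0.14 to 0.30 (208223_s_at) of ACVR1B, -0.27 to 0.17 (228416_at) of ACVR2A and -0.087 to 0.10 (1559548_at) of ACVR2B. Signal close to the dim end limits INHBB, INHBE and these probe sets other than 205209_at, whose mean of 5.13 lay above the median gene mean. CDKN2B also lay below that median.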

Other observations

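Antisense transcripts at the loci of the members were measured by 3 probe sets, read out after the values of the members were seen. INHBA-AS1, the antisense RNA gene next to INHBA, was dim: 1557850_at read 3.57, 3.58 and 3.64 on the ambient arrays and 3.73, 3.54 and 3.19 under negative pressure (log2 fold change -0.11 ± 0.15, SE; limma adjusted p = 0.912), and 1559163_at had a mean of 1.46 and stood at 0.01. ACVR2B-AS1 (215590_x_at) had a mean of 3.01 and stood at -0.03 (limma adjusted p = 0.986). The groups overlapped on all 3. Probe sets of BMPR2 differed in sign: 225144_at, the brightest, stood at -0.33, and 209920_at and 210214_s_at, where every negative pressure array lay above the ambient ones, at 0.43 and 0.48 (limma adjusted p = 0.303 and 0.230). The share of all probe sets separated upward in this way was not counted.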
